A study of Mus musculus with 4 samples.

Results

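miR-132 and miR-212 are 2 microRNAs (miRs) made from neighboring hairpins on mouse chromosome 11. Every row of the deposited table named miR-132 or miR-212 with a 3p or 5p suffix was taken, which gave 4 of 568 mature miRs, namely miR-132-3p, miR-132-5p, miR-212-3p and miR-212-5p. They were measured in proangiogenic cells (PACs), which are bone marrow cells that were grown on fibronectin and selected by adherence. The marrow was taken on day 2 of surgical hindlimb ischemia, and the cells were cultured for 4 days before RNA was prepared. The study asked how cardiovascular risk factors (CRFs) alter miRs in these cells. The CTL library came from C57Bl/6 mice aged 2 months, and the aging library from C57Bl/6 mice aged 16 months. The SMK library came from C57Bl/6 mice aged 2 months with cigarette smoke exposure that began 14 days ahead of the operation. The HC library came from APOE-/- mice aged 2 months, which lack a protein that clears lipoproteins, and which received a Western-type diet starting 5 weeks ahead of the operation. All 4 groups, CTL included, had hindlimb ischemia. Genotype and diet differ together between HC and CTL, so their parts cannot be told apart.

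RNA of several mice was pooled before sequencing, so each condition had 1 library and no replicates. Per the labels, 6 samples made up the CTL pool, 2 the aging pool, and 4 each of the SMK and HC pools, whereas the methods give a larger minimum per group than the 2 of aging, and this was not reconciled here. Values are reads per 1000000 (RPM), and every value was a whole multiple of the smallest value of its library, within 0.001 count. The smallest value of each library was taken as 1 count. On that basis the totals behind the RPM were 1038986 counts in HC, 1670010 in SMK, 2541732 in CTL and 1568958 in aging. These totals are below the miRNA reads that the supplementary table of the study gives for each library. The gap is of unlike size between libraries and was not reconciled here. All counts and counting intervals below rest on these totals. Ranges in parentheses are exact 95% intervals of a Poisson count, of a ratio of 2 counts or of a share. They cover counting error only, with each count taken as independent, and compare single libraries, not conditions. No p-value can be had from 1 library per condition. Of the marker miRs listed for cell types, the 5 listed as myeloid summed to between 59879 and 76629 RPM per library, most of it miR-142a-3p and miR-223-3p. In RNA of a whole culture, more cells of a type and more miR per cell cannot be told apart.

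MiRs act as guides. After Dicer has cut a hairpin, 1 of its 2 arms is usually kept in Argonaute, where bases 2 to 8, the seed, pair with target messenger RNAs and repress them. The locus of miR-132 and miR-212 is known as a target of CREB, a transcription factor that is activated by cyclic AMP, growth factors and neuronal activity. In endothelial cells miR-132 is induced by angiogenic growth factors and represses Rasa1, the GTPase-activating protein that holds Ras in check. In human monocytes it is induced by bacterial lipopolysaccharide, and in mouse bone marrow the locus is known to restrain Foxo3, a factor that governs the survival of blood stem cells. Messenger RNAs were not measured in these libraries, so none of these targets can be followed here.

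The 4 mature sequences are shown because the seed sets which members can share targets. They were read from RefSeq (GRCm38.p6), in which all 4 members were found, and capitals mark the seed.
miR-132-3p: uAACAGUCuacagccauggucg
miR-212-3p: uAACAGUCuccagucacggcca
miR-132-5p: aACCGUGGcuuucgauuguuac
miR-212-5p: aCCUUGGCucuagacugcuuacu
Both 3p arms have the seed AACAGUC, and no other mature miR among 1679 names in the RefSeq table has it. The 5p arms have different seeds, and neither seed occurs in another mature miR of that table. The 3p arms are identical at 17 of 22 positions. Counted from 1 at the 5′ end, with the base of miR-132-3p first, they differ by A10C, C14U, U17C, U20C and G22A. The last mapping step of the authors tolerated up to 2 mismatches, against these 5 differences. The GC content was 50% for miR-132-3p, 45.5% for miR-132-5p, 54.5% for miR-212-3p and 47.8% for miR-212-5p.

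The hairpins are shown with both mature arms in capitals, because the arms of each hairpin are compared below within a library.
Mir212: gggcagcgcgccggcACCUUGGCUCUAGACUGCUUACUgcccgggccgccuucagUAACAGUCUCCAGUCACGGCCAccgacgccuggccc
Mir132: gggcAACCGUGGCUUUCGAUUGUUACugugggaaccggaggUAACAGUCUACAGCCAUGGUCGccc
Mir212 lies at chr11:75173388-75173478 and Mir132 at chr11:75173682-75173747, both on the plus strand of GRCm38, with 203 bases between them. Both lie in intron 1 of 1700016P03Rik, a noncoding host transcript in GENCODE M21 whose first exon starts at 75172560, 828 bases before Mir212. The neighboring genes are Hic1, a transcriptional repressor, on one side and Ovca2 on the other, both on the minus strand. The build is the one that the methods name for mapping.

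MiR-132-3p was the abundant member and was higher in the SMK and HC libraries than in CTL. It was measured at 243.5 RPM in HC (253 counts, 214.4 to 275.4 RPM), 197.0 RPM in SMK (329 counts, 176.3 to 219.5 RPM), 93.6 RPM in CTL (238 counts, 82.1 to 106.3 RPM) and 84.1 RPM in aging (132 counts, 70.4 to 99.8 RPM). The CTL and aging intervals overlap, whereas those of SMK and HC lie above both. In rank among the 568 miRs it was number 111 in HC, 115 in SMK, 136 in CTL and 153 in aging. Its highest level was 2.89 times its lowest, against a median of 1.77 times for miRs that reached 100 RPM in any library.

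The other 3 members were under 100 RPM in every library. MiR-132-5p, the partner arm of the same hairpin, was measured at 45.2 RPM in HC (47 counts), 46.7 RPM in SMK (78 counts), 30.7 RPM in CTL (78 counts) and 32.5 RPM in aging (51 counts). MiR-212-5p was measured at 31.8 RPM in HC (33 counts), 32.3 RPM in SMK (54 counts), 22.8 RPM in CTL (58 counts) and 18.5 RPM in aging (29 counts). Both 5p arms were thus highest in SMK and HC, but the counting intervals of a 5p arm overlap between all 4 libraries. MiR-212-3p, which shares the seed of miR-132-3p, was measured at 6.74 RPM in HC (7 counts), 8.38 RPM in SMK (14 counts), 5.90 RPM in CTL (15 counts) and 6.37 RPM in aging (10 counts). With 7 to 15 counts its level could not be told apart between libraries. The order of the members was the same in each library, with miR-132-3p above miR-132-5p, miR-212-5p and miR-212-3p, although counts of different mature sequences also depend on ligation and amplification.

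**Figure D1:**
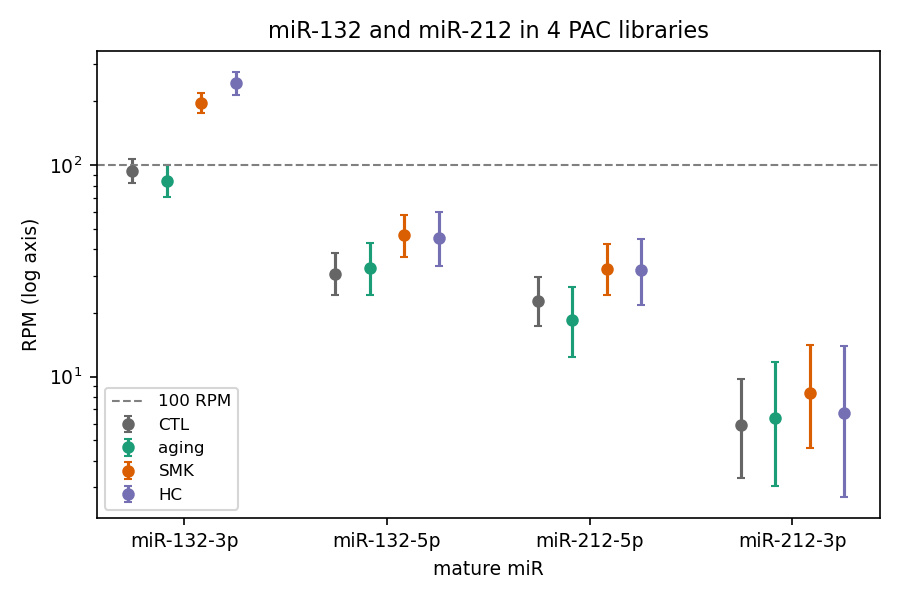
RPM on a log axis for the 4 members, with 1 point per library (CTL, aging, SMK and HC) and bars for the exact 95% Poisson interval. MiR-132-3p lies at 197.0 RPM in SMK and 243.5 RPM in HC, above the dashed line at 100 RPM, and below it in CTL and aging, and the other members lie below the line in every library.

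For folds the limits and the minimum of 100 RPM of the study were used, with a fold under 0.8 taken as lower and a fold over 1.6 as higher. The methods do not say in which library the minimum must be met, and here a miR with at least 100 RPM in either of 2 libraries was compared. If 100 RPM is required in CTL or in both libraries, miR-132-3p, at 93.6 RPM in CTL, is not compared with CTL, and the miRs past a limit number 72 or 64 in aging, 42 or 41 in SMK and 62 or 59 in HC, in place of 92, 51 and 84. Only miR-132-3p met the minimum, and only in comparisons with SMK or HC, since it was under 100 RPM in CTL and in aging. The comparisons with CTL share 1 CTL library.

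In SMK, miR-132-3p was 2.10-fold of CTL (1.78 to 2.496) and was taken as higher by the minimum in either library. Of the 146 miRs compared 34.9% were past a limit, 20.5% above 1.6-fold and 14.4% below 0.8-fold. It was number 13 from the top, and the median fold of the compared miRs was 1.15. The call ended at 1.56-fold when libraries were scaled to total reads, and at 1.48-fold with recovered counts over total reads. The other members had folds above 1 that stayed under the limit of 1.6, with 1.52 (1.10 to 2.11) for miR-132-5p, 1.42 (0.960 to 2.09) for miR-212-5p and 1.42 (0.635 to 3.16) for miR-212-3p. The interval of miR-132-5p excludes 1 and those of both miR-212 arms include it. With scaling to total reads the folds of miR-132-5p and miR-212-5p in SMK were 1.13 and 1.05. With recovered counts over total reads they were 1.07 and 0.998, so the rise of both 5p arms rests in large part on the scaling. MiRs that enter the comparison only through the SMK library are mostly higher by construction, which holds for miR-132-3p. There were 14 such miRs, of which 9 were above 1.6-fold, with a median fold of 2.14. Set beside the 59 other miRs that had between 46.8 and 187.3 RPM in CTL, a choice that does not use SMK, 10 (16.9%) were above 1.6-fold and 7 had a larger fold than miR-132-3p.

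In HC, miR-132-3p was 2.60-fold of CTL (2.17 to 3.12) and was taken as higher by the minimum in either library. Of the 158 miRs compared 53.2% were past a limit, 34.8% above 1.6-fold and 18.4% below 0.8-fold. It was number 28 from the top, and the median fold was 1.25. MiRs that enter only through HC, as miR-132-3p does, numbered 26, of which 22 were above 1.6-fold, with a median fold of 3.17. The fold of miR-132-3p moved to 1.605 with scaling to total reads, and to 1.15 with recovered counts over total reads, which ends the call. MiR-132-5p was at 1.47-fold (1.004 to 2.14), miR-212-5p at 1.39-fold (0.879 to 2.17) and miR-212-3p at 1.14-fold (0.394 to 2.97). Only the interval of miR-132-5p excludes 1. With scaling to total reads instead of RPM, the folds of miR-132-5p and miR-212-5p in HC were 0.910 and 0.859, so their direction rests on the scaling. Of the 59 other miRs with a like level in CTL, 18 (30.5%) were above 1.6-fold in HC and 8 had a larger fold than miR-132-3p.

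In aging, none of the members reached 100 RPM in either library, so none was compared by the rule, under which 59.7% of 154 miRs were past a limit, 33.1% above 1.6-fold and 26.6% below 0.8-fold. The values are therefore a description. MiR-132-3p was at 0.898-fold of CTL (0.721 to 1.12), miR-132-5p at 1.06-fold (0.729 to 1.53), miR-212-3p at 1.08-fold (0.434 to 2.57) and miR-212-5p at 0.810-fold (0.50 to 1.29). All 4 intervals include 1, and for miR-132-3p a fold of 1.6 or more lies outside the interval. The fold of miR-132-3p was lower under other scalings, at 0.685 with a trimmed mean of log ratios, 0.610 with total reads and 0.508 with recovered counts over total reads, which all lie below the interval by RPM. Of the 59 miRs with a like level in CTL, 39 had a larger fold in aging than miR-132-3p and 20 a smaller one.

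**Figure D2:**
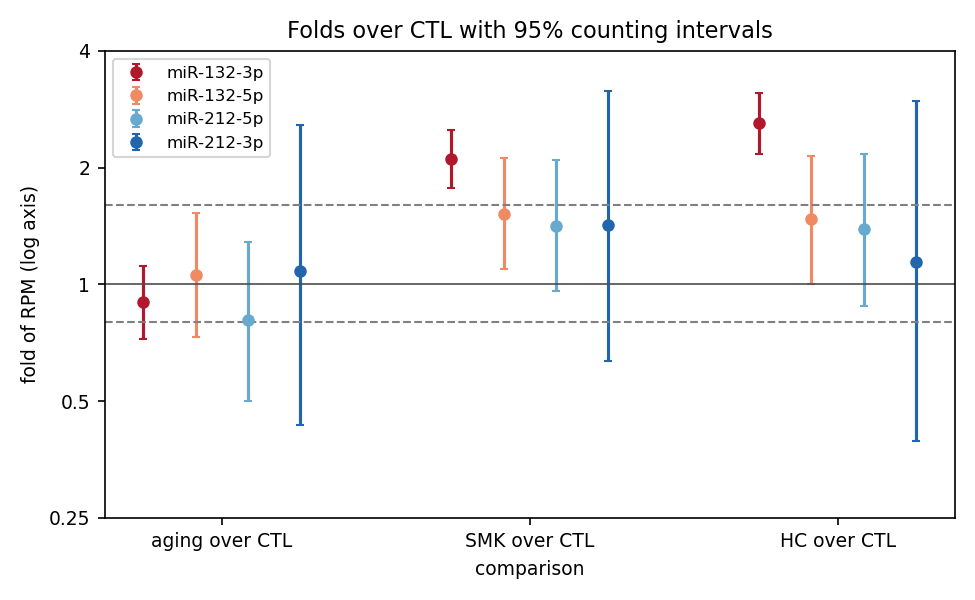
Fold of RPM over CTL on a log axis for the 4 members in aging, SMK and HC, with exact 95% counting intervals and dashed lines at the limits of 0.8 and 1.6. In SMK and HC the interval of miR-132-3p (1.78 to 2.496 and 2.17 to 3.12) lies wholly above 1.6, and in aging all intervals cross 1.

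The background against which miR-132-3p is read moved with the scaling. By RPM, 51 miRs were higher and 41 lower in aging, 30 higher and 21 lower in SMK, and 55 higher and 29 lower in HC. With a trimmed mean of log ratios, which moved all log2 folds over CTL by -0.39 in aging, -0.24 in SMK and -0.43 in HC, these became 26 higher and 64 lower, 17 higher and 39 lower, and 28 higher and 67 lower. MiR-132-3p stayed among the higher miRs of HC at 1.94-fold and of SMK. With scaling to total reads, which moved log2 folds by -0.56 in aging, -0.43 in SMK and -0.70 in HC, there were 22, 9 and 20 higher and 77, 60 and 86 lower miRs.

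Comparisons between the CRF libraries do not use CTL. MiR-132-3p was 2.34-fold in SMK over aging (1.91 to 2.89), where 41.2% of 153 miRs were past a limit, 13.1% above 1.6-fold and 28.1% below 0.8-fold, and it was number 10 from the top. In HC over aging it was 2.89-fold (2.34 to 3.60), where 31.2% of 157 miRs were past a limit, 16.6% above 1.6-fold and 14.6% below 0.8-fold, and only 2 miRs had a larger fold. In both comparisons miR-132-3p met the minimum only through SMK or HC, as did 7 miRs in SMK over aging, all 7 of them above 1.6-fold, and 11 in HC over aging, of which 8 were, so its places from the top are in part set by the minimum. Between HC and SMK it was 1.24-fold (1.05 to 1.46), between the limits, and 21.2% of 156 miRs were past one of them, 10.3% above and 10.9% below. By RPM the order of its levels was thus aging, CTL, SMK and HC, in which aging and CTL did not differ beyond counting error. HC over SMK was 1.08-fold under trimmed-mean scaling and 1.03-fold with total reads, and it turned to 0.775-fold with recovered counts over total reads.

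MiR-212-5p also had intervals above 1 against aging, with 1.75-fold in SMK (1.09 to 2.85) and 1.72-fold in HC (1.01 to 2.93). MiR-132-5p was at 1.44-fold in SMK over aging (0.997 to 2.09) and at 1.39-fold in HC over aging (0.916 to 2.11). MiR-212-3p was between 0.804-fold and 1.32-fold in the 3 comparisons between CRF libraries, with intervals that all include 1. Of the 24 folds of 4 members in 6 library pairs, 9 had an interval that excludes 1. Of these, 5 belong to miR-132-3p, in all pairs but aging and CTL, and 4 to the 5p arms.

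**Figure D3:**
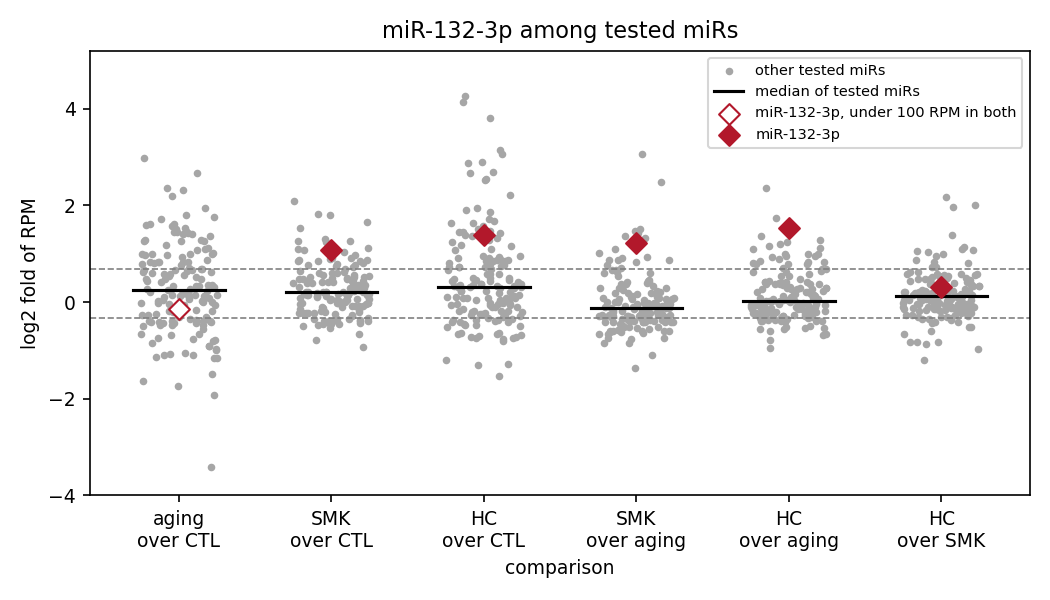
Log2 fold of RPM in 6 library pairs, with gray points for the other miRs at 100 RPM or more in either library, black lines for the median of the compared miRs, diamonds for miR-132-3p and dashed lines at the limits of 0.8 and 1.6. MiR-132-3p is number 3 of 157 in HC over aging, 13 of 146 in SMK over CTL and 28 of 158 in HC over CTL, and the open diamond marks aging over CTL, where it was under 100 RPM in both libraries.

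The arms of a hairpin come from the same transcript, and their ratio within a library does not depend on how libraries are scaled. For miR-132 the 3p arm was the major one in every library. Of the counts of both arms it took 84.3% in HC (253 of 300, 79.7 to 88.3%), 80.8% in SMK (329 of 407, 76.7 to 84.5%), 75.3% in CTL (238 of 316, 70.2 to 80.0%) and 72.1% in aging (132 of 183, 65.0 to 78.5%). The share was higher in HC than in CTL, with an odds ratio of 1.76 (1.16 to 2.70), and higher in SMK and HC than in aging, with odds ratios of 1.63 (1.06 to 2.49) and 2.08 (1.29 to 3.34). The odds ratio of SMK over CTL was 1.38 (0.953 to 2.00), and those of aging over CTL at 0.848 (0.551 to 1.31) and HC over SMK at 1.28 (0.844 to 1.94) also had intervals that include 1.

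For miR-212 the 5p arm was the major one, although the 3p arm holds the seed that is shared with miR-132-3p. The 3p arm had a share of 17.5% in HC (7 of 40, 7.34 to 32.8%), 20.6% in SMK (14 of 68, 11.7 to 32.1%), 20.5% in CTL (15 of 73, 12.0 to 31.6%) and 25.6% in aging (10 of 39, 13.0 to 42.1%). None of the 6 odds ratios between libraries had an interval that excludes 1, at 39 to 73 counts per library. In CTL, 43 of 109 hairpins (39.4%) with both arms listed and at least 30 counts in all had more 3p than 5p counts.

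**Figure D4:**
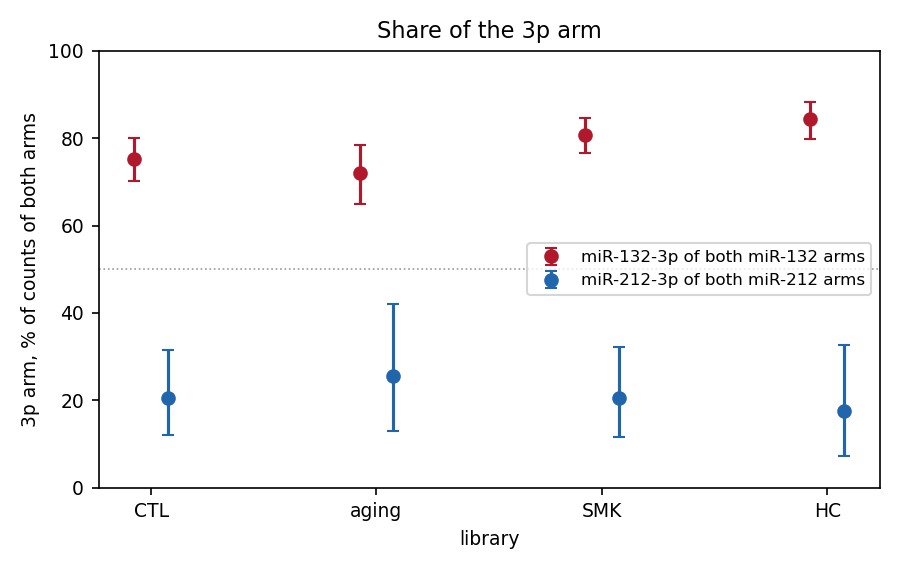
Share of the 3p arm in the counts of both arms of miR-132 (red) and miR-212 (blue) in each library, with exact 95% binomial intervals and a dotted line at 50%. The share of miR-132-3p lies between 72.1% and 84.3% and that of miR-212-3p between 17.5% and 25.6%, and the intervals of the hairpins do not overlap in any library.

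Arm ratios of other hairpins also differed between libraries. The ratio of 3p to 5p counts of miR-132 was 5.38 in HC, 4.22 in SMK, 3.05 in CTL and 2.59 in aging. Among hairpins with at least 30 counts in each arm of both libraries, the change of this ratio from CTL to HC was number 11 from the top of 38, with a quartile range from 0.981 to 1.79. From CTL to SMK it was number 14 of 48. From aging to SMK it was number 2 of 45, and from aging to HC number 1 of 39, where the quartiles were 1.002 and 1.36. This set of hairpins was chosen after the values were seen and miR-212 had too few counts to enter it. The shift of the miR-132 arms was thus among the larger ones against aging, and within the range of many hairpins against CTL.

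MiR-132 was also set against miR-212 arm by arm. Of the counts of both 5p arms, miR-132-5p took 58.8% in HC (47.2 to 69.6%), 59.1% in SMK (50.2 to 67.6%), 57.4% in CTL (48.6 to 65.8%) and 63.8% in aging (52.2 to 74.2%). Of the counts of both 3p arms, miR-132-3p took 97.3% in HC, 95.9% in SMK, 94.1% in CTL and 93.0% in aging. Among miRs with the seed AACAGUC, miR-132-3p therefore made up most of the counts in each library. No odds ratio between libraries of either share had an interval that excludes 1, including 2.28 (0.855 to 6.71) for the 3p arms in HC over CTL. Summed over all 4 members the level was 327.2 RPM in HC, 284.4 RPM in SMK, 153.0 RPM in CTL and 141.5 RPM in aging. Of this sum, miR-132-3p took 74.4% in HC, 69.3% in SMK, 61.2% in CTL and 59.5% in aging, and its odds against the other 3 members were 1.43 times those of CTL in SMK (1.07 to 1.91) and 1.85 times in HC (1.33 to 2.57).

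The miRs most like miR-132-3p were sought among 160 other miRs with 100 RPM or more in any library, by the Euclidean distance of log2 RPM centered over the 4 libraries. The closest was miR-676-3p, at a distance of 0.44, with 419.6 RPM in HC, 301.2 RPM in SMK, 215.6 RPM in CTL and 163.8 RPM in aging. It was followed by miR-125b-5p (0.61), miR-125a-5p (0.68), miR-99b-5p (0.71) and miR-195a-5p (0.74), against a median distance of 1.39. MiR-125b-5p, a miR of blood stem cells, was measured at 31259 RPM in HC, 18941 RPM in SMK, 13151 RPM in CTL and 14647 RPM in aging. The 5 miRs were all higher in SMK and HC than in CTL by value, which their choice by distance to miR-132-3p in these same libraries favors. MiR-125a-5p was also at 1.58-fold in aging, where miR-132-3p was at 0.898-fold. MiR-212-5p lay at 0.71 and miR-132-5p at 0.82, so that 4 and 6 of the 160 miRs were closer to miR-132-3p than these members of its own locus. MiR-212-3p lay at 1.12. These distances describe 4 libraries, of which each value has its counting error.

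**Figure D5:**
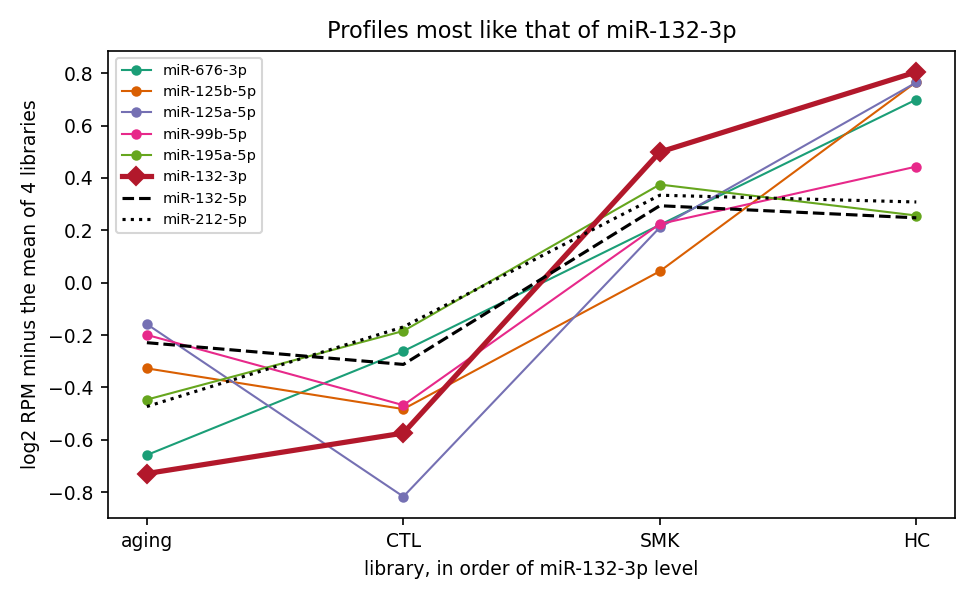
Log2 RPM minus the mean over 4 libraries for miR-132-3p (red diamonds), the 5 miRs closest to it (colored points) and both 5p arms of the locus (black dashed and dotted lines). MiR-676-3p follows miR-132-3p at a distance of 0.44, whereas miR-132-5p and miR-212-5p level off between SMK and HC.

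The nearest other hairpin with listed arms within 1 Mb is Mir22, which starts 290034 bases downstream of Mir132 and is made from a separate transcript. MiR-22-3p, which is abundant in blood cells, was measured at 2554 RPM in HC, 2971 RPM in SMK, 1969 RPM in CTL and 3353 RPM in aging. It was higher in aging (1.70-fold, 1.64 to 1.77), where miR-132-3p was not, and between the limits in SMK (1.51-fold, 1.45 to 1.57) and HC (1.30-fold, 1.24 to 1.36).

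MiRs that share an inducer or a target with miR-132 were read from lists. Of 6 miRs that lipopolysaccharide or Toll-like receptors induce in monocytes and macrophages, 4 were compared in each CRF library, and none was higher, against 34.8% of all compared miRs in HC, 20.5% in SMK and 33.1% in aging. In SMK 2 of the 4 were lower, against 14.4% of all compared miRs, namely miR-146a-5p (0.761-fold, 0.751 to 0.770), a brake on Toll-like receptor signaling, and miR-155-5p (0.799-fold, 0.733 to 0.870), which favors inflammation. MiR-155-5p lies just past the limit, and its interval crosses it. The 4 miRs include miR-21a-5p and miR-146a-5p, number 1 and 7 by level in CTL. They were not matched in level to the other compared miRs, and with 4 miRs such counts are a description. In HC all 4 lay between the limits, with miR-146a-5p at 1.06-fold, miR-155-5p at 0.932-fold, miR-146b-5p at 1.05-fold and miR-21a-5p at 0.884-fold. The list had a median log2 fold of -0.01 in HC, -0.19 in SMK and -0.05 in aging, against 0.32, 0.20 and 0.24 for all miRs compared.

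Of 7 miRs induced by VEGF in endothelial cells, 6 were listed and 5 were compared. Of these 1 was higher in each library, and 3 were lower in aging, 3 in SMK and 2 in HC, where 26.6%, 14.4% and 18.4% of all compared miRs were lower. With 5 miRs such counts are a description. MiR-191-5p was the higher one, in aging (1.98-fold), SMK (1.81-fold) and HC (2.57-fold). MiR-17-5p and miR-31-5p were lower in all 3 libraries. MiR-20a-5p, of the same cluster as miR-17-5p, was lower in aging at 0.751-fold and between the limits in SMK and HC, and miR-155-5p, also on this list, was lower in SMK. The list had a median log2 fold of -0.25 in HC, -0.32 in SMK and -0.41 in aging. Of 6 reported repressors of Rasa1, 3 were compared. MiR-31-5p was lower, at 0.0933-fold in aging, 0.776-fold in SMK and 0.435-fold in HC. MiR-223-3p, the hallmark miR of granulocytes, was at 1.27-fold in aging and 1.37-fold in SMK, and higher in HC (1.65-fold, 1.63 to 1.67). MiR-21a-5p lay between the limits throughout. By RPM, which is not per molecule across different sequences, miR-132-3p read far below miR-21a-5p, at 267374 to 313084 RPM, and miR-223-3p, at 22760 to 37472 RPM.

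MiR-132 is also abundant in neurons, so a list of 10 neuronal miRs was read. Of these 6 were measured, and miR-124-3p, the defining neuronal miR, was not among the 568 miRs listed, so its level is not known. The 6 summed to 386.9 RPM in HC, 426.9 RPM in SMK, 314.0 RPM in CTL and 451.9 RPM in aging. Only miR-128-3p, which blood cells also make, was above 100 RPM, and it was highest in aging (386.9 RPM), where miR-132-3p was lowest. It made up most of the sum, and the members under 100 RPM differed from it and from each other. MiR-9-5p (7.65 RPM), miR-129-5p (10.8 RPM) and miR-219a-5p (31.9 RPM) were lowest in aging, as was miR-132-3p. MiR-138-5p was lowest in HC and miR-383-5p was highest in aging. The other marker lists differed in their order. The lymphoid sum was 4337 RPM in HC, 2962 RPM in SMK, 1223 RPM in CTL and 2414 RPM in aging, nearly all of it miR-342-3p, while miR-150-5p was between 35.6 and 43.1 RPM. The sum of the erythroid miR-451a and miR-486a-5p was 86.6 RPM in HC, 28.1 RPM in SMK, 26.8 RPM in CTL and 10.8 RPM in aging, and of its members miR-451a was lower in SMK (14.4 RPM) than in CTL (22.4 RPM). Both sums were highest in HC, as was miR-132-3p by RPM. MiR-150-5p of the lymphoid list was not, at 35.6 RPM in HC, 36.2 RPM in CTL and 43.1 RPM in SMK. The myeloid sum was 69986 RPM in HC, 66836 RPM in SMK, 59879 RPM in CTL and 76629 RPM in aging. The sum of both arms of the endothelial miR-126a was 18424 RPM in HC, 33683 RPM in SMK, 29076 RPM in CTL and 13795 RPM in aging, and the stromal sum was 23093 RPM in HC, 31906 RPM in SMK, 36592 RPM in CTL and 12411 RPM in aging. These 3 sums were not highest in HC, but each is set by its most abundant members. MiR-223-3p and both miR-511 arms of the myeloid list and miR-214-3p of the stromal list were highest in HC, and the other members were not. In SMK, miR-10b-5p, miR-145a-5p and miR-214-3p were above CTL by value, while miR-143-3p and the joint row of miR-199a-3p and miR-199b-3p were below it. The part of these cells in the result was not tested.

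Base composition moved with the folds. Sequences were found for 90.4% of the miRs compared in SMK and 89.2% in HC. The median fold in SMK was 1.02 for miRs under 45% GC, 1.28 from 45 to 55% and 1.47 above 55%, and in HC it was 1.02, 1.37 and 1.94. All 4 members lie in the middle class. Of the 49 other miRs of this class in SMK, 14 (28.6%) were above 1.6-fold and 5 had a larger fold than miR-132-3p. Of 51 in HC, 23 (45.1%) were above 1.6-fold and 9 had a larger fold. Divided by the median of the class, the fold of miR-132-3p was 1.64 in SMK, 1.90 in HC and 0.616 in aging, where the median of the class was 1.46. In HC over aging the class had a median of 1.02, and none of its 51 miRs had a larger fold than miR-132-3p, which met the minimum there only through HC. The part of base composition in the results was not tested.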

How the data were processed

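Small RNA of PACs was sequenced from 4 libraries, 1 per condition, each of pooled RNA. The RPM values were made and deposited by the authors. Per the methods, a NextSeq run of QIAseq libraries was followed by stepwise bowtie mapping to miRBase version 21 and other RNAs, and counts were normalized by library size. The submitters' processing notes name bcl2fastq 2.20, TopHat2 2.0.10, HTSeq 0.5.4 and mm10, and both accounts were not reconciled here. Whether reads with the same molecular identifier were merged is not given in the sources used here. If they were not, counts are not independent and the counting intervals are too narrow.

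Dividing each RPM by the smallest of its library gave whole counts for 100% of values. No count test was possible with 1 library per condition. Folds are ratios of RPM without a pseudocount, with exact conditional binomial (Clopper-Pearson) 95% intervals. Odds ratios have exact conditional intervals. Intervals were tested on simulated Poisson counts, the model that they assume. Whether the data follow that model was not tested. The named miRs were the 4 members, miRs of the same seed, miRs within 1 Mb, the 5 nearest profiles, and list members at 100 RPM or more. The members and lists were chosen with earlier results of these data known. Alternatives were 5 scalings, pseudocounts of 1 and 10 RPM, other minima and limits, both 3p arms summed and division by the median of miRs with like GC content. The total-read scalings used a supplementary table of the study only for the total reads and the miRNA reads of each library. Scaling to total reads multiplied RPM by the share of miRNA reads in total reads, which was largest in CTL and smallest in HC. That step takes RPM as formed over the miRNA reads, which the recovered totals do not match. Recovered counts over total reads used the recovered counts in place of the miRNA reads. Python 3.11.15, scipy 1.17.1, R 4.3.3 and edgeR 4.0.16 (trimmed mean of M values) were used.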

Additional observations from a re-analysis of the deposited data

How the results depend on the processing

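The folds of miR-132-3p kept their direction in SMK and HC over CTL and in both over aging under every alternative, whereas that of HC over SMK turned under recovered counts over total reads, and the size of the folds moved with the scaling. With scaling to total reads the fold of miR-132-3p was 1.56 in SMK, which ends the call, 1.605 in HC, which barely keeps it, 0.610 in aging and 1.03 in HC over SMK. Recovered counts over total reads, chosen after the values were seen, gave 1.48 in SMK and 1.15 in HC, which ends both calls, 0.508 in aging, 2.91 in SMK over aging, 2.26 in HC over aging and 0.775 in HC over SMK. A trimmed mean of log ratios gave 1.94 in HC and 0.685 in aging. Division by the median of miRs with 45 to 55% GC, also chosen afterwards, gave 1.64 in SMK, 1.90 in HC and 0.616 in aging. With 100 RPM required in CTL or in both libraries, miR-132-3p was not compared with CTL at all. Of 54 alternative values of miR-132-3p, 39 stayed within the counting interval, as did 139 of 150 for the other members. The intervals of the other members are wider because their counts are fewer, so their larger share does not show steadier folds. All alternatives of miR-212-3p, with 7 to 15 counts, stayed within its intervals. The number of miRs past the limits went from 92 to 377 in aging, from 51 to 301 in SMK and from 84 to 375 in HC without a minimum, and to 55, 16 and 43 with limits of 0.6 and 2. In SMK it was 80 with recovered counts over total reads. No paired analysis was possible because each condition had 1 library. Depth limits the miR-212 arms most, since 1 count was worth 0.393 RPM in CTL and 0.962 RPM in HC.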
